A study of Mus musculus with 21 samples.

Results

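The 9 genes described here are Eno1b, Gapdh-ps15, Gapdh, Rpl34-ps1, Hbb-b1, Rab6b, Ddc, Ly6c2 and Ccl6, of 14732 genes in the table of read counts. They were chosen by their raw read counts across all 6 groups of background and genotype, comparing control levels between 3 mouse backgrounds and reading whether the knockout changed them. Their differences, by background and by genotype, are therefore given as a description without a test. All 9 passed the filter on low counts, Eno1b, Gapdh-ps15, Rpl34-ps1 and Hbb-b1 through the groups where they are high, as did 12333 of the 14732 genes. RNA of the heart ventricles of male mice aged 2 months was sequenced in 21 libraries. The BL6J background had 4 control libraries (WT/Y) and 4 libraries of the knockout of Taz (KO/Y), AJ-F1 had 4 and 3, and CAST-F1 had 3 and 3. The controls were littermates. The parents of the F1 animals, and whether each library came from 1 animal, are not given in the sources used here. P-values therefore cover the variation among the libraries of a group, which may be technical.

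Taz encodes tafazzin, an X-linked enzyme that remodels cardiolipin, the lipid of the inner mitochondrial membrane. Its level was 36.5 to 61.0 CPM, the read count scaled to library size, in the control libraries. In the knockout libraries it was 5.51 to 6.07 CPM in BL6J, 1.48 to 3.77 CPM in AJ-F1 and 1.07 to 2.60 CPM in CAST-F1. Knockouts and controls did not overlap in any background, and the BL6J knockouts were above all F1 knockouts. Total counts ran from 3848172 to 10738130 per library. Replicate 3 of the AJ-F1 controls had the highest level of Gapdh, Hbb-b1 and Ly6c2 among all libraries, and fold differences that move by over 1.5 times without it are given both ways.

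Several of these genes belong to families in which a reading of RNA must tell near-identical sequences apart. A retrocopy is a spliced messenger RNA that was copied back into the genome, so it lacks introns and resembles the exons of its parent gene. Eno1b is a retrotransposed copy of Eno1, the glycolytic enzyme alpha enolase. Gapdh-ps15 is a processed copy of Gapdh, another glycolytic enzyme that is abundant in heart, and Rpl34-ps1 is a processed copy of Rpl34, a protein of the large ribosomal subunit. Hbb-b1 and Hbb-b2 are adult beta globin genes of one haplotype of the mouse locus, and Hbb-bs and Hbb-bt are the pair of another. Ly6c2 and its neighbour Ly6c1 encode surface proteins of blood and endothelial cells. Rab6b is a small GTPase of Golgi transport, Ddc is the decarboxylase that makes dopamine and serotonin, and Ccl6 is a CC chemokine of myeloid cells.

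By the reference annotation (GENCODE M21, GRCm38), Gapdh-ps15 lies on chromosome Y at chrY:38619783-38620784, plus strand, as a single-exon processed pseudogene. Gapdh lies on chromosome 6 at chr6:125161715-125166467, minus strand, where its end overlaps that of Iffo1. Rpl34-ps1 is at chr6:71124610-71124963, plus strand, a processed pseudogene in GENCODE and a coding gene in RefSeq. Rab6b is at chr9:103111787-103185276, plus strand. Ddc at chr11:11814101-11898144, Ccl6 at chr11:83587882-83593087 and Ly6c2 at chr15:75108158-75111970 are on the minus strand. These 4 and Eno1b are coding genes. Hbb-b1 and Hbb-b2 are not placed on the chromosomes of this annotation, so no position is given for them.

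The sequences of the copies show how little separates them from their parents. The 1002 bases of Gapdh-ps15 aligned to the Gapdh transcript with 5 differences, and their longest identical stretch was 411 bases. The 4 of these differences that lie closest together are in capitals below, in the stretch chrY:38619845-38620024 of the copy and in bases 155 to 334 of the Gapdh transcript.
Gapdh-ps15: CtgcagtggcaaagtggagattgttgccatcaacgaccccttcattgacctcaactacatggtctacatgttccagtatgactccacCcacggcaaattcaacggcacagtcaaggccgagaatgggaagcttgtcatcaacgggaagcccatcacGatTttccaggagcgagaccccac
Gapdh: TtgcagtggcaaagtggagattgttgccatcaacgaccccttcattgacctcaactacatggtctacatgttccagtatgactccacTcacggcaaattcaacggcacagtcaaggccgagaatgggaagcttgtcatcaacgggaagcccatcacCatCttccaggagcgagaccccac
The differences, counted from base 1 of Gapdh-ps15 with the parent's base first, were T63C, T150C, C219G and C222T in this stretch and C591T outside it. The 354 bases of Rpl34-ps1 carried 2 differences from Rpl34, T132C and C318G, and an identical stretch of 185 bases between them. Both are in capitals in the stretch chr6:71124729-71124938 of the copy and bases 210 to 419 of the Rpl34 transcript.
Rpl34-ps1: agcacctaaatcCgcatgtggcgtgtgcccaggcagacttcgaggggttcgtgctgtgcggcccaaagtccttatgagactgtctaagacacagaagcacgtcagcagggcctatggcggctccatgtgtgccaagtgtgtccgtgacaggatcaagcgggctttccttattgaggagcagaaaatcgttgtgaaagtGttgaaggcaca
Rpl34: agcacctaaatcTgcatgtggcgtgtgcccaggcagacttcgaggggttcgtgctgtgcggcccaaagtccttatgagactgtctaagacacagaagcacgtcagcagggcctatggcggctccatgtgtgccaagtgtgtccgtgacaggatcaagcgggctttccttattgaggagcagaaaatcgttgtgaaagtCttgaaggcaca
Ly6c2 and Ly6c1 differed at 20 of 822 aligned bases. The first 180 coding bases of each, transcript bases 45 to 224 of Ly6c2 and 60 to 239 of Ly6c1, are shown with 6 differences in capitals.
Ly6c2: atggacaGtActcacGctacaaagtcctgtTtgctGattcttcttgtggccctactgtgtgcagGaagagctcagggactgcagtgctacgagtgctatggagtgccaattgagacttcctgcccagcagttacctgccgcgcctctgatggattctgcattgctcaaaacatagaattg
Ly6c1: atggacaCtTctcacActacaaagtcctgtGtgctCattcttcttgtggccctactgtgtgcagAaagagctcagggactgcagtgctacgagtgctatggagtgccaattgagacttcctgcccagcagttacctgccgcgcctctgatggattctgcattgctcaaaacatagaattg
Eno1b and Eno1 differed at 9 of 1385 aligned bases, with an identical stretch of 487 bases. A read that lies within an identical stretch cannot be given to one gene of a pair by its sequence, and how such reads were counted is not given in the sources used here, so the split between a copy and its parent is uncertain. Ccl6 shared no stretch of 50 bases with Ccl9, and Rab6b shared none with Rab6a.

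Of the copies, Eno1b was all but absent from BL6J, with 1 read over the 4 control libraries and 0 over the 4 knockout libraries, where 0 of 8719 reads of Eno1 and its copy allows a share of up to 0.0344%. In AJ-F1 its level was 31.0, 27.9, 47.7 and 44.2 CPM in the control libraries and 47.9, 45.2 and 40.7 CPM in the knockout libraries. In CAST-F1 it was 66.0, 77.7 and 79.7 CPM in controls and 109.9, 108 and 115 CPM in knockouts. Every CAST-F1 library was above every AJ-F1 library, and every AJ-F1 library was above every BL6J library. Set against the 1 read of the BL6J controls, the control level was 802-fold higher in AJ-F1 (95% counting interval 144 to 31706) and 1579-fold higher in CAST-F1 (283 to 62402), intervals that cover counting error only. Without replicate 3 of the BL6J controls, which holds that read, the differences were at least 212-fold and at least 417-fold.

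Gapdh-ps15 was high in CAST-F1 alone. Its level was 2957, 2780.3 and 2719 CPM in the CAST-F1 controls and 2124, 2361 and 2515 CPM in the CAST-F1 knockouts. In the other 4 groups it ran from 0.228 to 7.21 CPM, the latter in replicate 3 of the AJ-F1 controls. The CAST-F1 control level was 1415-fold that of the BL6J controls and 994-fold that of the AJ-F1 controls, or 1626-fold without replicate 3 of the latter, which holds 44 of their 86 reads. Rpl34-ps1 was likewise high in CAST-F1. It was at 43.4, 48.8 and 39.95 CPM in the CAST-F1 controls, at 57.3, 60.8 and 60.1 CPM in the CAST-F1 knockouts and at 0 to 0.753 CPM in the other 4 groups, none of which held more than 7 reads in total. The CAST-F1 control level was 467-fold that of the BL6J controls (95% counting interval 129 to 3861), which rests on 2 reads in BL6J and was 702-fold or 713-fold without replicate 2 or 4 of the BL6J controls.

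**Figure D1:**
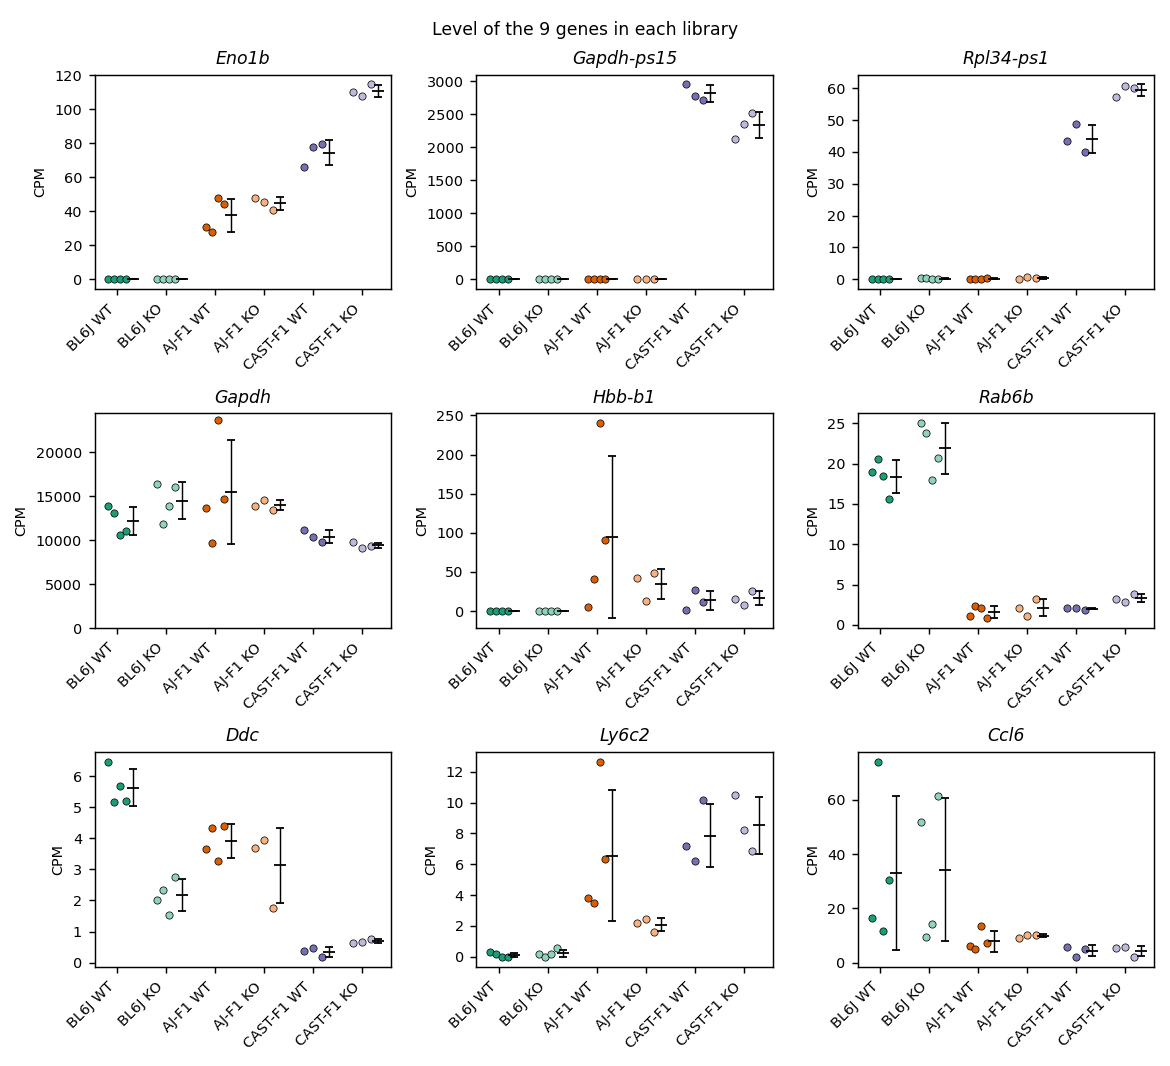
Level of each of the 9 genes, in CPM on linear axes, in each of the 21 libraries (points) of the 6 groups, with the group mean and SD (bars beside the points). Eno1b rises in steps from BL6J to AJ-F1 to CAST-F1, Gapdh-ps15 and Rpl34-ps1 are high in CAST-F1, and Rab6b is at 15.6 to 25.0 CPM in BL6J against 0.802 to 3.80 CPM in the other backgrounds.

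Of the globin genes, Hbb-b1 had 0 reads in the 4 BL6J control libraries and 1 read in the 4 BL6J knockout libraries. Its level in AJ-F1 was 4.62, 41.6, 240.2 and 90.3 CPM in controls and 42.5, 12.4 and 48.9 CPM in knockouts, and in CAST-F1 it was 1.85, 27.005 and 12.1 CPM and 15.8, 8.004 and 25.9 CPM. The AJ-F1 and CAST-F1 libraries overlapped widely, and each was above all BL6J libraries. Against a floor of 3 reads over the BL6J control group, the control level was at least 623-fold higher in AJ-F1 and at least 100.5-fold higher in CAST-F1. The bounds were 355-fold without replicate 3 of the AJ-F1 controls and 50.2-fold without replicate 2 of the CAST-F1 controls.

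Ly6c2 had 3 reads over the BL6J control libraries and 5 over the BL6J knockout libraries. It was at 3.81, 3.46, 12.6 and 6.31 CPM in the AJ-F1 controls, 2.22, 2.45 and 1.61 CPM in the AJ-F1 knockouts, 7.21, 6.20 and 10.2 CPM in the CAST-F1 controls and 10.5, 8.22 and 6.85 CPM in the CAST-F1 knockouts. The AJ-F1 knockout libraries were below all AJ-F1 control libraries and above all BL6J libraries. The control level was 44.5-fold that of BL6J in AJ-F1 (95% counting interval 15.0 to 218) and 55.1-fold in CAST-F1 (18.5 to 270). Without replicate 1 of the BL6J controls, which leaves 1 read, these were 92.4-fold and 114-fold.

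Rab6b and Ccl6 had the opposite order, with the highest levels in BL6J. Rab6b was at 18.9, 20.6, 18.4 and 15.6 CPM in the BL6J controls and 25.0, 23.8, 18.03 and 20.7 CPM in the BL6J knockouts, while no AJ-F1 or CAST-F1 library exceeded 3.80 CPM. The control level was 12.5-fold lower in AJ-F1 and 9.24-fold lower in CAST-F1 than in BL6J, and the AJ-F1 and CAST-F1 controls overlapped each other. Ccl6 varied more within BL6J, at 16.3, 73.9, 11.6 and 30.3 CPM in controls and 51.9, 9.55, 14.3 and 61.5 CPM in knockouts. It was at 4.91 to 13.6 CPM in the AJ-F1 libraries and at 2.03 to 5.92 CPM in the CAST-F1 libraries, so that BL6J and AJ-F1 overlapped and BL6J and CAST-F1 did not. The BL6J control level was 4.27-fold that of AJ-F1 and 7.68-fold that of CAST-F1, or 2.52-fold and 4.53-fold without replicate 2 of the BL6J controls.

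Ddc was lowest in CAST-F1, where no library overlapped those of the other backgrounds. It was at 6.46, 5.16, 5.69 and 5.22 CPM in the BL6J controls and 3.67, 4.33, 3.28 and 4.41 CPM in the AJ-F1 controls, without overlap of these groups. The knockouts were at 2.02, 2.34, 1.55 and 2.75 CPM in BL6J and 3.698, 3.95 and 1.75 CPM in AJ-F1. The CAST-F1 controls were at 0.370, 0.477 and 0.172 CPM and the CAST-F1 knockouts at 0.642, 0.649 and 0.761 CPM, from 6 and 9 reads in total. The parent gene Gapdh differed least of the 9, with control means of 12186 ± 1607 CPM (SD, n = 4) in BL6J, 15442 ± 5915 CPM (n = 4) in AJ-F1 and 10417 ± 698 CPM (n = 3) in CAST-F1. Replicate 3 of the AJ-F1 controls was at 23705 CPM and the other AJ-F1 controls were at 9692 to 14652 CPM.

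The knockout groups were compared between backgrounds in the same way, and the values are a description, since the choice of the genes read these libraries too. In the fit over all 12333 genes with edgeR's quasi-likelihood test and Benjamini-Hochberg adjustment, 4 of the 9 genes passed the threshold of 0.05 between the AJ-F1 and BL6J knockouts, where 2.21% of all genes did. Between the CAST-F1 and BL6J knockouts 8 of 9 passed, beside 5.12% of all genes, and between the CAST-F1 and AJ-F1 knockouts 5 of 9, beside 6.76%. Nothing is read from these counts. The first fell to 2 without BL6J knockout 1 or 3 or AJ-F1 knockout 1, and the second to 5 without BL6J knockout 4 or any of the CAST-F1 knockouts. The 3 comparisons share knockout groups pairwise. The same comparisons of the control groups called 3.26% of all genes between AJ-F1 and BL6J, 5.73% between CAST-F1 and BL6J and 5.26% between CAST-F1 and AJ-F1.

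The retrocopies differed between the knockout groups in the same direction as between controls. Eno1b was at least 315-fold higher in the AJ-F1 and at least 790-fold higher in the CAST-F1 than in the BL6J knockouts, against a floor of 3 reads over the BL6J group, and higher by 1.31 ± 0.20 (log2, SE) in CAST-F1 than in AJ-F1. Gapdh-ps15 was higher in the CAST-F1 knockouts by 10.42 ± 0.48 against BL6J and by 9.83 ± 0.53 against AJ-F1 on the log2 scale, and differed by 0.59 ± 0.59 between the AJ-F1 and BL6J knockouts, which overlapped. Rpl34-ps1 was higher in the CAST-F1 knockouts by 7.86 ± 0.43 against BL6J and by 7.19 ± 0.44 against AJ-F1, on 5 and 7 reads in the lower groups. These SE can lie below the counting error of so few reads. The ratios of the levels were 254-fold against BL6J, or 474-fold without BL6J knockout 1, and 154-fold against AJ-F1, or 254-fold without AJ-F1 knockout 2. For Gapdh itself the log2 difference was -0.63 ± 0.20 against BL6J and -0.57 ± 0.21 against AJ-F1. Every CAST-F1 knockout library was below every other knockout library in Gapdh.

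Of the blood and immune genes, Ly6c2 was higher than in the BL6J knockouts by 3.04 ± 0.70 in AJ-F1 and 5.07 ± 0.59 in CAST-F1, and by 2.04 ± 0.46 in CAST-F1 over AJ-F1. The first of these rests on 37 and 5 reads, and with 5 reads in BL6J the SE can lie below counting error. As ratios of the levels the differences from BL6J were 8.73-fold and 36.9-fold, or 16.3-fold and 68.8-fold without BL6J knockout 4. Hbb-b1 was 778-fold higher in the AJ-F1 knockouts (95% counting interval 139 to 30795) and 345-fold higher in the CAST-F1 knockouts (61.2 to 13671) than in the BL6J knockouts, which held 1 read. Without BL6J knockout 4, which holds that read, the differences were at least 194-fold and at least 85.6-fold. For Ccl6 the log2 difference from the BL6J knockouts was -2.96 ± 0.71 in CAST-F1 and -1.78 ± 0.63 in AJ-F1, with overlap of the AJ-F1 and BL6J libraries.

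Rab6b differed from the BL6J knockouts by a log2 change of -3.30 ± 0.30 in AJ-F1 and -2.74 ± 0.29 in CAST-F1, and by 0.56 ± 0.36 between the F1 knockouts. Ddc differed in the CAST-F1 knockouts by -1.63 ± 0.41 from BL6J and by -2.14 ± 0.41 from AJ-F1. These rest on 9 reads in CAST-F1, where the SE can lie below counting error. Between the AJ-F1 and BL6J knockouts the difference of Ddc was 0.51 ± 0.30, and these libraries overlapped.

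Within a background, 1 of the 9 genes passed between knockout and control in each, beside 22.3% of all genes tested in BL6J, 28.5% in AJ-F1 and 20.3% in CAST-F1. The choice of the genes read this contrast, so nothing is read from these counts. Ddc was lower in the BL6J knockouts by a log2 change of -1.38 ± 0.27, with a mean of 5.63 ± 0.60 CPM in controls and 2.16 ± 0.51 CPM in knockouts (SD, n = 4 and 4) and no overlap of the libraries. Ly6c2 was lower in the AJ-F1 knockouts by -1.64 ± 0.44, at 6.55 ± 4.24 and 2.09 ± 0.43 CPM (n = 4 and 3), and the log2 change was -1.15 without replicate 3 of the AJ-F1 controls. Eno1b was higher in the CAST-F1 knockouts by 0.57 ± 0.20, at 74.5 ± 7.40 and 110.8 ± 3.42 CPM (n = 3 and 3), again without overlap. Ly6c2 no longer passed without AJ-F1 knockout 3 or with the compared groups alone, and Eno1b no longer passed in 14 of 27 alternative analyses, among them each one that left out a CAST-F1 library.

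The remaining knockout differences are given by gene. For Ddc the log2 change was -0.36 ± 0.28 in AJ-F1 and 0.95 ± 0.57 in CAST-F1. For Eno1b it was 0.24 ± 0.19 in AJ-F1, and for Ly6c2 0.12 ± 0.41 in CAST-F1. The CAST-F1 copies differed by -0.27 ± 0.34 for Gapdh-ps15 and 0.43 ± 0.27 for Rpl34-ps1, and their control and knockout libraries did not overlap. Rab6b was at 0.25 ± 0.22, 0.53 ± 0.35 and 0.70 ± 0.37 in BL6J, AJ-F1 and CAST-F1, above 0 in each. Gapdh was at 0.25 ± 0.18, -0.14 ± 0.19 and -0.15 ± 0.21 in the same order, and the AJ-F1 value turned to 0.13 without control replicate 3. Ccl6 was at 0.06 ± 0.53, 0.34 ± 0.64 and 0.02 ± 0.82, each within its error of 0. Hbb-b1 was at -1.43 ± 0.93 in AJ-F1, or -0.39 without control replicate 3, and at 0.25 ± 1.06 in CAST-F1.

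The difference of the knockout effects between backgrounds was computed as well. By edgeR 0 of the 9 genes passed, beside 0.00811% of all genes between AJ-F1 and BL6J, 0.0324% between CAST-F1 and BL6J and 0.0892% between CAST-F1 and AJ-F1, and DESeq2's Wald test called 0 of 9 in each. At an unadjusted p under 0.05 there was 1 gene in each, where 11.1%, 4.84% and 9.88% of all genes were. The choice of the genes read these values too, so nothing is read from these counts. The knockout effect on Ddc was higher than in BL6J by 1.02 ± 0.39 in AJ-F1 and by 2.33 ± 0.64 in CAST-F1, and that on Ly6c2 was higher by 1.76 ± 0.60 in CAST-F1 than in AJ-F1. For Eno1b the effect was higher by 0.33 ± 0.27 in CAST-F1 than in AJ-F1.

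The reads of each copy were then set beside those of its parent. The shares are shares of reads and are not corrected for length, which is 1791 and 1902 bases for the annotated transcripts of Eno1b and Eno1, 1002 and 1272 for Gapdh-ps15 and Gapdh, and 354 and 480 for Rpl34-ps1 and Rpl34. Eno1b held 12.7 ± 2.07% (SD, n = 4) of the reads of the pair in the AJ-F1 controls and 11.3 ± 1.75% (n = 3) in the AJ-F1 knockouts. In CAST-F1 it held 38.4 ± 3.38% and 36.8 ± 0.82% (n = 3 each). The knockout and control shares overlapped in both backgrounds. Gapdh-ps15 held 21.3 ± 0.42% of the reads of Gapdh and its copy in the CAST-F1 controls and 19.9 ± 1.77% in the CAST-F1 knockouts, and at most 0.0304% in any other library. Rpl34-ps1 held 28.1 ± 2.60% and 25.5 ± 1.17% in CAST-F1 and at most 0.413% elsewhere. The control and knockout shares of these copies overlapped in CAST-F1.

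**Figure D2:**
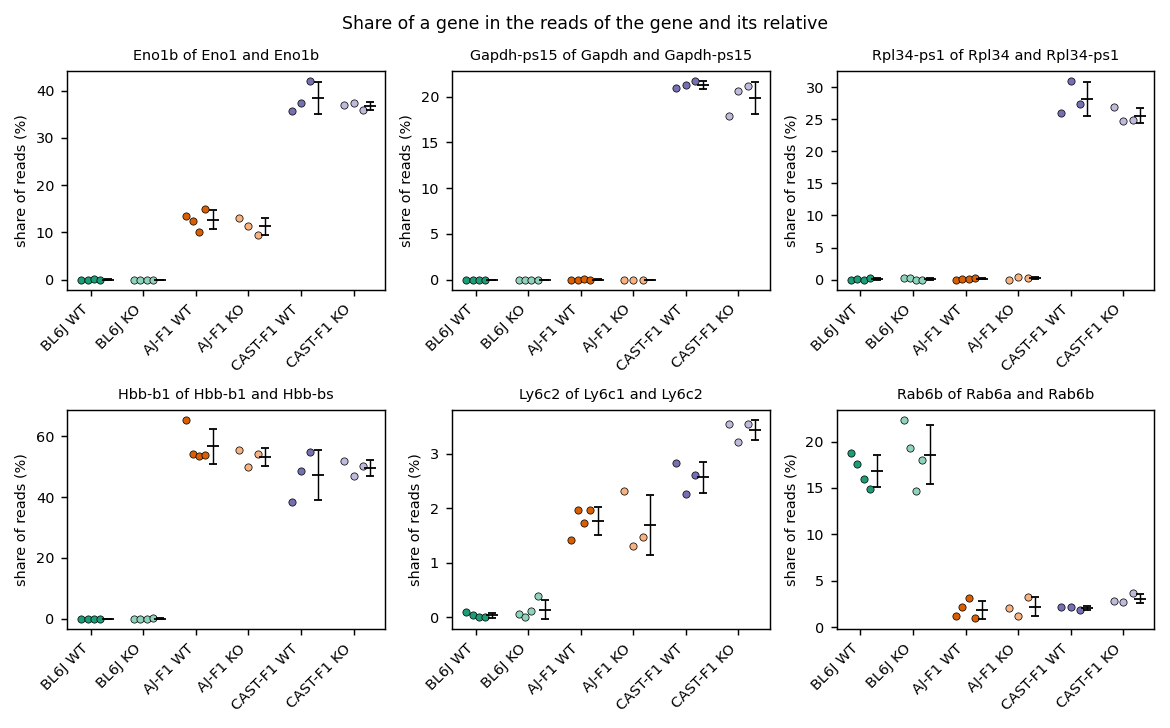
Share of reads, in percent on axes from 0, of a gene in the reads of that gene and a relative, for each library (points) of the 6 groups with the mean and SD (bars beside the points). The shares of the copies overlap between control and knockout libraries of CAST-F1, with Gapdh-ps15 at 21.3% and 19.9% on average. Rab6b is at 16.8% and 18.6% in BL6J. For Ly6c2 every CAST-F1 knockout library is above every CAST-F1 control library.

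The sums of the pairs differed less between backgrounds than the copies. This was fixed in advance, since the copies were all but absent from BL6J and their parents were not. Eno1 with Eno1b summed to 290 ± 54.7 CPM in the BL6J controls, 307 ± 117 CPM in the AJ-F1 controls and 194 ± 12.3 CPM in the CAST-F1 controls. In the knockouts the sum was 404 ± 87.1, 399 ± 30.3 and 302 ± 16.2 CPM. The parent Eno1, which is not among the 9, was lower in CAST-F1 than in BL6J by a log2 change of -1.27 ± 0.23 in controls (adjusted p = 0.00154) and -1.08 ± 0.23 in knockouts (adjusted p = 0.00566). Against AJ-F1 it was at -1.17 ± 0.23 in controls (adjusted p = 0.0031) and -0.89 ± 0.24 in knockouts (adjusted p = 0.0245). Eno1 rose in the CAST-F1 knockouts by 0.67 ± 0.24 (adjusted p = 0.0496), near to the 0.57 ± 0.20 of Eno1b. Its changes in BL6J and AJ-F1 were 0.48 ± 0.20 and 0.40 ± 0.22 (adjusted p = 0.0981 and 0.178).

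Gapdh with its copy summed to 12188 ± 1608, 15445 ± 5917 and 13236 ± 820 CPM in the BL6J, AJ-F1 and CAST-F1 controls, and to 14525 ± 2111, 13986 ± 586 and 11739 ± 230 CPM in the knockouts. The control sums of the 3 backgrounds overlapped. Rpl34 with its copy summed to 118.5, 129.3 and 156.9 CPM in the BL6J, AJ-F1 and CAST-F1 controls. In the knockouts this sum was 191.4, 176.6 and 233.4 CPM, so its mean was highest in CAST-F1 in either genotype. Rpl34, which is not among the 9, did not pass between any 2 backgrounds, with log2 differences between -0.20 ± 0.18 and 0.12 ± 0.17 in controls and between -0.14 ± 0.18 and -0.02 ± 0.19 in knockouts. It rose in the knockouts of BL6J (0.69 ± 0.17, adjusted p = 0.00453) and CAST-F1 (0.62 ± 0.19, adjusted p = 0.0256), and was at 0.45 ± 0.18 in AJ-F1 (adjusted p = 0.0658). Of 44 genes of the large ribosomal subunit, 40, 25 and 24 rose in the knockouts of BL6J, AJ-F1 and CAST-F1 and none fell, with median log2 changes of 0.69, 0.51 and 0.58 beside medians of 0.01, 0.01 and -0.02 over all genes. Of all genes tested, 22.3%, 28.5% and 20.3% passed in these knockouts in either direction. The log2 change of Rpl34-ps1 in CAST-F1, 0.43 ± 0.27, lay below the list median of 0.58.

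**Figure D3:**
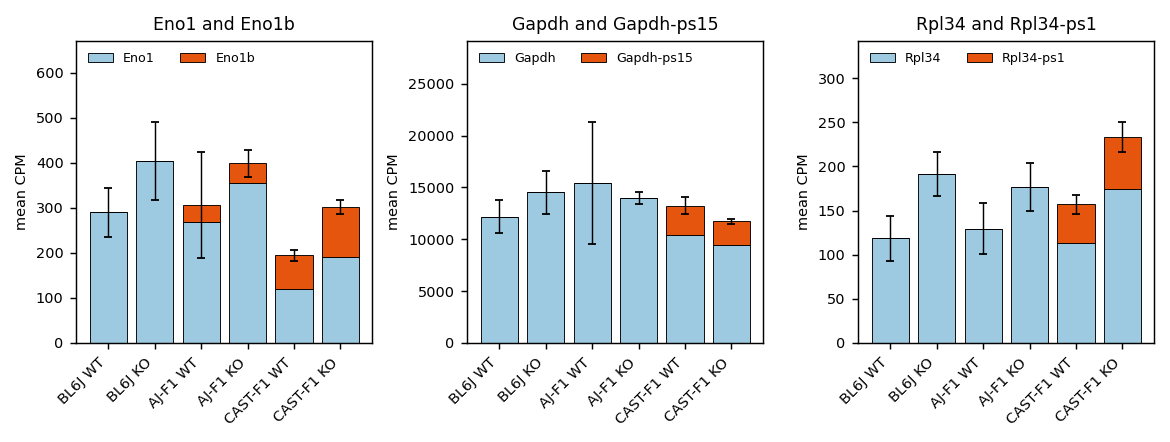
Mean CPM of a parent gene (blue) with its copy stacked on it (orange) in the 6 groups, with the SD of the sum over libraries. Eno1 and Eno1b reach 194 CPM together in the CAST-F1 controls against 290 CPM in the BL6J controls, and the Gapdh sums of the controls lie between 12188 and 15445 CPM.

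Among the other enolases, Eno3, the muscle form, fell in the knockouts of all 3 backgrounds by 1.22 ± 0.18, 1.45 ± 0.20 and 1.63 ± 0.21 on the log2 scale (adjusted p = 3.47e-05, 1.68e-05 and 7.23e-06 in BL6J, AJ-F1 and CAST-F1). Eno2, the neuronal form, was at 0.608 ± 0.438 CPM in the BL6J controls and 2.39 ± 0.64 CPM in the CAST-F1 controls, a log2 difference of 1.85 ± 0.47 (adjusted p = 0.0216). Of 17 tested genes of glycolysis without Eno1b and Gapdh, 4 rose and 4 fell in the BL6J knockouts. In those of AJ-F1 and of CAST-F1, 5 rose and 5 fell. Of all genes tested, 22.3%, 28.5% and 20.3% passed in BL6J, AJ-F1 and CAST-F1 in either direction. Hk1, hexokinase, rose by 0.73 ± 0.13, 1.31 ± 0.14 and 1.04 ± 0.15 (adjusted p = 0.000197, 3.26e-07 and 2.63e-05), and Ldha, lactate dehydrogenase, fell by 0.82 ± 0.13, 0.89 ± 0.14 and 0.60 ± 0.15 (adjusted p = 8.74e-05, 0.000102 and 0.00639). Between the knockout groups of different backgrounds 1, 1 and 3 of the 17 passed, beside 2.21%, 5.12% and 6.76% of all genes.

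For Hbb-b1 the relatives were read within each library, since globin RNA in heart tissue varies with the blood it holds. Hbb-b1 made up 56.6 ± 5.84% and 53.3 ± 2.90% of the reads of Hbb-b1 and Hbb-bs in AJ-F1 controls and knockouts, and 47.2 ± 8.19% and 49.6 ± 2.52% in CAST-F1. In BL6J it made up 0 of 4572 reads in controls, which allows a share of up to 0.0656%, and 1 of 1124 reads in knockouts. Hbb-b2 followed the same order, with 0 reads in the 8 BL6J libraries, 294 and 53 reads in the AJ-F1 controls and knockouts, and 46 and 32 reads in those of CAST-F1. The beta globins together held 25.8 ± 5.33% of all alpha and beta globin reads in BL6J controls, 27.2 ± 3.31% in AJ-F1 controls and 29.2 ± 1.34% in CAST-F1 controls, ranges that overlapped.

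The alpha globins Hba-a1 and Hba-a2 summed to between 11.1 and 1778 CPM over the BL6J control libraries, between 26.8 and 1246 CPM in AJ-F1 and between 12.2 and 166.0 CPM in CAST-F1. Hba-a2 made up 39.8 ± 4.59% of the alpha reads in BL6J controls, 19.8 ± 0.36% in AJ-F1 and 17.6 ± 2.12% in CAST-F1, with 41.8 ± 3.26%, 20.2 ± 0.97% and 22.0 ± 1.09% in the knockouts. The BL6J libraries did not overlap the others in this share. Of the 8 other erythroid genes tested, none passed between knockout groups, while Alas2, the erythroid enzyme of haem synthesis, was lower in the CAST-F1 than in the BL6J controls (-3.90 ± 1.10, adjusted p = 0.0386). The summed level of the erythroid list, Hbb-b1 included, ran from 278 to 2733 CPM in BL6J controls, 253 to 2052 CPM in AJ-F1 controls and 292 to 514 CPM in CAST-F1 controls, and Ahsp and Epb42 were not analysed here. In the BL6J control library at 278 CPM, the alpha globins held 11.1 CPM, Hbb-bs 2.00 CPM and Hbb-bt 0.461 CPM. The rest of that sum came from list genes other than globins. How far the blood content of the samples sets the level of Hbb-b1 was not tested. Of 9 genes of haem synthesis, 1 was higher in the AJ-F1 than in the BL6J knockouts, Alad, by 1.21 ± 0.17 (adjusted p = 0.000207). Of all genes tested, 2.21% passed there in either direction.

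**Figure D4:**
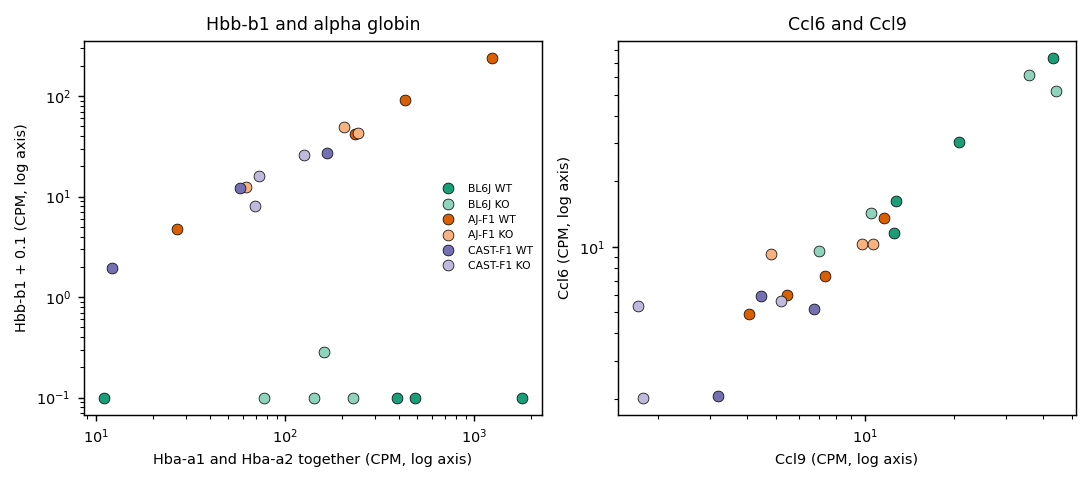
Left, Hbb-b1 against the summed alpha globins, and right, Ccl6 against Ccl9, both in CPM on log axes with 1 point per library, with 0.1 CPM added to Hbb-b1. The AJ-F1 and CAST-F1 libraries lie along a line in the left panel, while the BL6J libraries stay at 0 or 0.184 CPM of Hbb-b1 over alpha globin levels of 11.1 to 1778 CPM.

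For Ly6c2, the reads of the near-identical Ly6c1 did not follow its difference between backgrounds. Ly6c1 was at 342 ± 94.4, 367 ± 240 and 299 ± 71.1 CPM in the BL6J, AJ-F1 and CAST-F1 controls, with a log2 difference of 0.10 ± 0.35 in AJ-F1 and -0.19 ± 0.38 in CAST-F1 against BL6J (adjusted p = 0.882 and 0.846). Ly6c2 held 1.77 ± 0.26% and 1.69 ± 0.54% of the reads of the pair in AJ-F1 controls and knockouts, and 2.56 ± 0.29% and 3.43 ± 0.19% in those of CAST-F1. The AJ-F1 shares overlapped. Ly6c1 fell in the AJ-F1 knockouts by 1.503 ± 0.40 (adjusted p = 0.00795). In CAST-F1 every knockout library had a higher share than every control library. Of the same cluster, Ly6a fell in the AJ-F1 knockouts by 1.31 ± 0.32 and Ly6e fell by 1.28 ± 0.33 (adjusted p = 0.00478 and 0.00659). Replicate 3 of the AJ-F1 controls was the highest of its group in each, at 716, 166 and 1127 CPM for Ly6c1, Ly6a and Ly6e. The falls without it are not given here.

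Endothelial and fibroblast genes were lower in the AJ-F1 knockouts, as Ly6c2 was, and monocyte genes were not called. Of 11 endothelial genes, which include Ly6c1 and Ly6a, 8 fell in the AJ-F1 knockouts and none in the other backgrounds. Of 7 fibroblast genes 7 fell in AJ-F1, 2 in BL6J and 0 in CAST-F1. Of all genes tested, 28.5%, 22.3% and 20.3% passed in either direction in AJ-F1, BL6J and CAST-F1. The difference of effects passed for 1 of 12333 genes between AJ-F1 and BL6J and for 11 between CAST-F1 and AJ-F1. No difference between backgrounds is read from the list counts. They include replicate 3 of the AJ-F1 controls and are not given without it. Pecam1, the endothelial adhesion molecule, was at 216 ± 61.2 CPM in the AJ-F1 controls and 105 ± 20.7 CPM in the knockouts, a fall of 1.04 ± 0.24 (adjusted p = 0.0029). The summed endothelial level was 1238 to 3144 CPM in the AJ-F1 controls and 741 to 1258 CPM in the knockouts. In bulk tissue, fewer cells of a type and less RNA per cell cannot be told apart, and the part of the endothelial genes in the lower level of Ly6c2 was not tested. Of 13 tested monocyte and macrophage genes without Ly6c2 and Ccl6, none passed between knockout and control in any background by edgeR.

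Ccl6 was read beside its neighbour Ccl9, a CC chemokine of the same cluster. Ccl6 held 46.7% to 60.4% of the reads of the pair on average in the 6 groups. Ccl9, which is not among the 9, was lower in CAST-F1 than in BL6J by a log2 change of -2.22 ± 0.60 in controls (adjusted p = 0.0306) and -3.05 ± 0.66 in knockouts (adjusted p = 0.00746). In AJ-F1 it was at -1.66 ± 0.51 and -1.53 ± 0.56 (adjusted p = 0.0748 and 0.212). Of 13 tested monocyte and macrophage genes, 4 were lower in the CAST-F1 than in the BL6J knockouts and none was higher, namely Ccl9, Lyz2, lysozyme (-1.15 ± 0.31, adjusted p = 0.0339), C1qb, a complement subunit (-1.46 ± 0.41, adjusted p = 0.0415), and Fcgr1, an antibody receptor (-2.82 ± 0.77, adjusted p = 0.0352). Of all genes tested, 5.12% passed between these knockouts in either direction. Between the CAST-F1 and BL6J controls Lyz2, C1qb and Fcgr1 did not pass by edgeR (adjusted p = 0.275, 0.207 and 0.637). The summed list, Ccl6 and Ly6c2 included, was 370 to 831 CPM in the BL6J and 191 to 264 CPM in the CAST-F1 knockouts. Without Ccl6 and Ly6c2 it was 360 to 769 and 183 to 251 CPM in these knockouts. In the controls it was then 300 to 606 CPM in BL6J and 177 to 364 CPM in CAST-F1, which overlapped. Chil3 was not analysed here. The part of macrophage content in the Ccl6 difference was not tested. Of 10 tested genes of the CC chemokine axis without Ccl6, 1 was lower in the CAST-F1 knockouts, which was Ccl9, and the receptor Ccr1 was at 1.49 ± 1.47 CPM in the BL6J controls and 0.546 ± 0.670 CPM in those of CAST-F1.

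Ddc was read beside the genes of catecholamine and serotonin handling. Dbh, which turns dopamine into noradrenaline, fell in the knockouts of every background, by 3.44 ± 0.48, 6.16 ± 0.60 and 4.57 ± 0.67 on the log2 scale in BL6J, AJ-F1 and CAST-F1 (adjusted p = 1.65e-05, 1.17e-07 and 3.81e-05). Its levels were 5.80 ± 1.61 and 0.534 ± 0.526 CPM in BL6J controls and knockouts, 13.3 ± 3.39 and 0.152 ± 0.138 CPM in AJ-F1, and 5.85 ± 1.01 and 0.215 ± 0.214 CPM in CAST-F1. At such low knockout levels the SE of the Dbh falls can lie below counting error. Ddc was 16.6-fold lower in the CAST-F1 than in the BL6J controls, where the Dbh ranges overlapped. Of the enzymes that break the amines down, Maoa rose by 5.06 ± 0.36, 4.22 ± 0.35 and 4.30 ± 0.39 (adjusted p = 7.39e-10, 9.85e-09 and 5.14e-08) and Maob fell by 1.77 ± 0.21, 1.17 ± 0.22 and 2.19 ± 0.25 (adjusted p = 1.69e-06, 0.0005 and 1.31e-06). These were the 3 of 8 tested genes of the list that passed in each background, beside 22.3%, 28.5% and 20.3% of all genes.

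Markers of sympathetic nerve were few and low. Of the list, Dbh and Stmn2 were tested, and Th and Npy were not analysed here. Stmn2, a neuronal tubulin regulator, fell in the AJ-F1 knockouts by 1.24 ± 0.33 (adjusted p = 0.00767), where Ddc was at -0.36 ± 0.28. In BL6J, where Ddc was at -1.38 ± 0.27, Stmn2 was at 5.71 ± 1.85 CPM in controls and 5.09 ± 2.42 CPM in knockouts. The summed list, Ddc included, was 15.0 to 20.8 CPM in the BL6J controls and 5.51 to 11.7 CPM in the knockouts. Without Ddc it was 9.83 to 14.3 CPM in the BL6J controls and 2.75 to 9.34 CPM in the BL6J knockouts. In AJ-F1 the sum without Ddc was 15.2 to 26.2 CPM in controls and 3.36 to 4.52 CPM in knockouts. In CAST-F1 it was 13.0 to 15.5 CPM in controls and 8.65 to 9.20 CPM in knockouts, where Ddc was at 0.95 ± 0.57. Its part in the difference of Ddc was not tested.

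Rab6b differed between backgrounds without its relatives. Rab6a, the widely expressed paralog, was at 91.3 ± 7.21, 86.4 ± 16.0 and 95.6 ± 6.09 CPM in the BL6J, AJ-F1 and CAST-F1 controls and did not pass in any comparison, with log2 differences of -0.02 ± 0.13 and 0.11 ± 0.13 between the AJ-F1 or CAST-F1 and the BL6J knockouts (adjusted p = 0.981 and 0.743). Rab6b held 16.8 ± 1.72% of the reads of the pair in BL6J controls and 1.85 ± 0.99% and 2.06 ± 0.21% in those of AJ-F1 and CAST-F1. Of 12 other genes of Rab6 transport, none passed between knockout groups by edgeR, and between controls 1 did, Bicd1, an adaptor of dynein, at -1.20 ± 0.30 in AJ-F1 against BL6J (adjusted p = 0.0322). Bicd1 rose in the AJ-F1 knockouts by 1.37 ± 0.32 (adjusted p = 0.0029). In the AJ-F1 controls it ran from 0.820 to 3.90 CPM, the lowest in replicate 3 on 5 reads. It was at 5.46 to 6.11 CPM in the BL6J controls and 6.29 to 6.72 CPM in the AJ-F1 knockouts. Erc1 fell in all 3 knockouts, by 0.93 ± 0.16, 0.67 ± 0.17 and 0.81 ± 0.18 (adjusted p = 0.000157, 0.00632 and 0.00308).

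The genes on either side of the 8 placed genes were read to see whether a difference ran along the chromosome. Of 45 tested neighbours, at most 3 on each side of each gene, 2 (4.44%) passed between the AJ-F1 and BL6J knockouts, 4 (8.89%) between CAST-F1 and BL6J and 1 (2.22%) between CAST-F1 and AJ-F1, beside 2.21%, 5.12% and 6.76% of all genes. Between the control groups 1, 7 and 3 passed (2.22%, 15.6% and 6.67%), beside 3.26%, 5.73% and 5.26%. The 1 between AJ-F1 and BL6J was Eif2s3y, which lies on chromosome Y as Gapdh-ps15 does. The 7 between CAST-F1 and BL6J were Chd4, Vamp1, Amotl2, Srprb, Ly6i, Ccl9 and Wfdc17. The 3 between CAST-F1 and AJ-F1 were Srprb, Upp1 and Ly6i. The 4 between the CAST-F1 and BL6J knockouts were Vamp1 near Gapdh, Trf near Rab6b, Ly6i near Ly6c2 and Ccl9 near Ccl6. Ly6i was higher in the CAST-F1 knockouts by 3.61 ± 0.60 against BL6J and 5.79 ± 0.84 against AJ-F1 (adjusted p = 0.000642 and 0.000157), at 4.23 ± 0.31 CPM against 0.323 ± 0.075 and 0.0628 ± 0.109 CPM. It stands 125 kb from Ly6c2, and Ly6a and Ly6c1 between them did not pass. None of the neighbours of Eno1b, Gapdh-ps15 or Rpl34-ps1 passed between knockout groups by edgeR, although the nearest tested neighbour of Eno1b was 676 kb away and that of Gapdh-ps15, Ddx3y, was 37333 kb away.

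**Figure D5:**
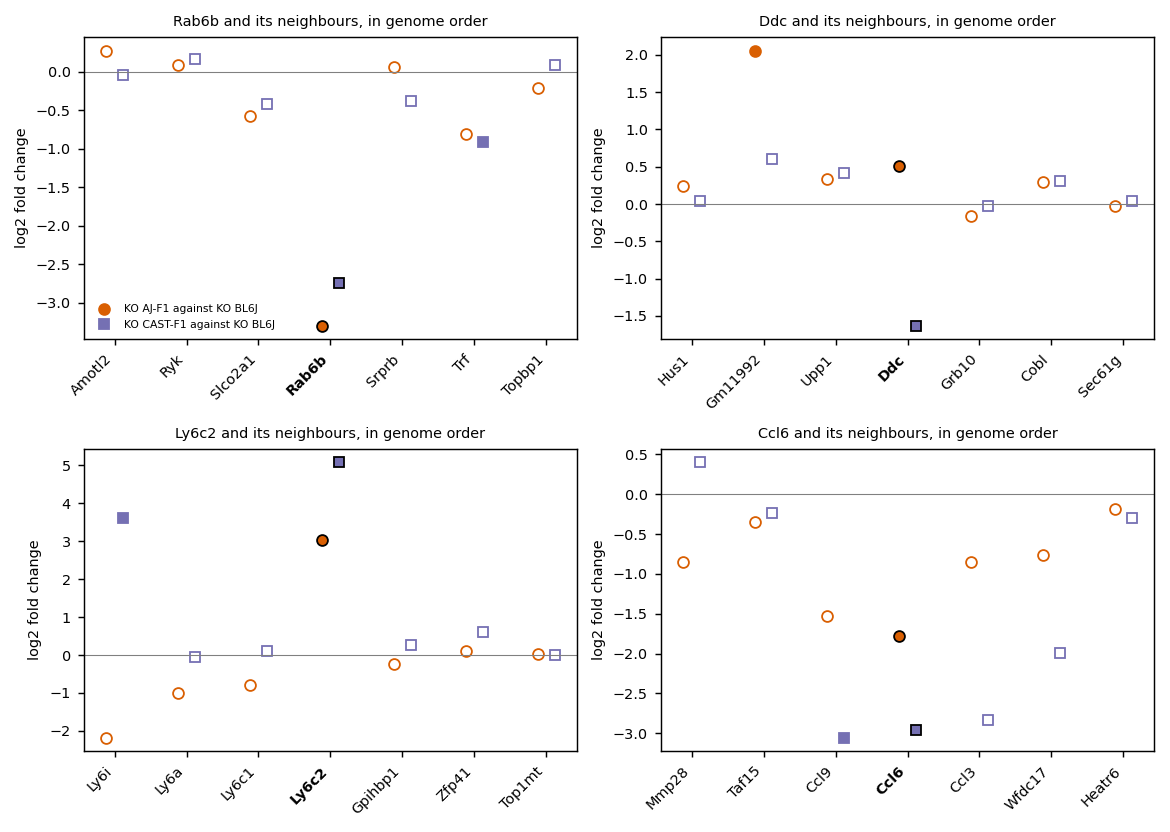
Log2 fold change between knockout groups, AJ-F1 (circles) and CAST-F1 (squares) against BL6J, for Rab6b, Ddc, Ly6c2 and Ccl6 (bold) and the 3 nearest tested genes on each side in genome order, not to distance. Filled symbols of the neighbours passed the adjusted threshold of 0.05, and those of the 4 genes, edged in black, carry no test. Ly6i at 3.61 beside Ly6c2 at 5.07 and Ccl9 at -3.05 beside Ccl6 at -2.96 are the neighbours that passed in CAST-F1 in the same direction, with Trf near Rab6b.

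The genes most like each of the 9 over the 21 libraries were found by Pearson correlation of log2 CPM among 12231 genes of at least 1 CPM on average, as a description of points that share group and library. Eno1b was most like Gm36712 (r = 0.98), Rpl34-ps1 and Gapdh-ps15 like LOC100862446 and Gm4737 (r = 0.99 for each closest gene), and Hbb-b1 like Hbb-b2 (r = 0.97). For the copies the Spearman correlation was lower, at 0.71 for Eno1b with Gm36712 and 0.92 with Gm10045, the second by Pearson correlation. It was 0.75 for Gapdh-ps15 with Gm4737 and 0.80 for Rpl34-ps1 with LOC100862446. Ly6c2 was most like Eno1b (r = 0.94) and Ccl6 like Ccl9 (r = 0.95). Gapdh was most like Ifnar2 (r = 0.89), Ddc like Adam22 (r = 0.90) and Rab6b like C4b (r = 0.87).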

How the data were processed

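Per the labels' protocols, stranded libraries were made from polyA RNA of heart ventricles. Tools listed by the submitters' processing notes are HISAT, featureCounts and DESeq2, with GRCm38.p6 as the genome build; versions, and the handling of strand and of reads that align to several places, are not given in the sources used here. The values analysed are the raw counts of reads that the authors deposited for each gene. The 42 further columns of per-sample values in the table were not used.

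The counts of 21 libraries were fitted with edgeR's quasi-likelihood test (edgeR 4.0.16, limma 3.58.1, R 4.3.3) with 6 group means, TMM normalisation and filterByExpr, leaving 12333 of 14732 genes and 99.91% of the counts. Two-sided p-values were adjusted with the Benjamini-Hochberg method across every gene tested, and calls were made at 0.05. The standard error is the absolute log2 fold change divided by the square root of the F statistic. It is derived from the test and can lie below counting error where a group holds few reads. CPM are scaled by TMM, and log2 CPM used a prior count of 2. The common biological coefficient of variation was 20.3%, and total counts of 3848172 to 10738130 per library limit what can be read from genes of a few reads. A group at 0 reads was set to a floor of 3 reads over the group. Ratios against 1 to 3 reads carry a 95% exact counting interval.

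The 9 genes, the lists and the tests were chosen with earlier results of these data known, and the choice of the genes read all 6 groups, so no p-value is given for them. Named were the 9 genes, their families, the 3 nearest tested genes on each side, the 2 most correlated genes and up to 4 genes with the smallest adjusted p of each list, with Pecam1, Stmn2, Alad and Alas2 singled out after their values were seen. Lists are counted without the 9 genes. Sequences and positions come from GENCODE M21 (GRCm38), and gene types also from RefSeq. Pairs were aligned as transcripts. The alternatives were DESeq2 size factors, no filter, a filter of 1 CPM in 3 samples, DESeq2's Wald test (DESeq2 1.42.0), a fit of the compared groups alone, a replicate block and each library left out. The test was checked on simulated counts.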

Additional observations from a re-analysis of the deposited data

Results flagged for a closer look

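Gapdh-ps15 was at 3.31 CPM in replicate 1 of the BL6J knockouts, and at 1.03 to 1.27 CPM in the other 3, so that the gap to the nearest library took up 0.893 of the range of the group. This exceeded the limit for 1 stray value among 4 samples, a limit that chance exceeds in about 1 of 20 groups, and 18 groups were read. It rests on 18 reads against 6 at the lowest.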

How the results depend on the processing

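The counts of the 9 genes passing, a description of these libraries, were recomputed with 1 library at a time left out. They ran from 2 to 4 between the AJ-F1 and BL6J knockouts, 5 to 9 between CAST-F1 and BL6J, 4 to 6 between CAST-F1 and AJ-F1, 1 to 1 for the knockout effect in BL6J, 0 to 1 in AJ-F1 and 0 to 1 in CAST-F1. With a fit of the compared groups alone, 0 passed for the knockout effect in AJ-F1 and 2 in CAST-F1. Whether the replicate numbers pair the samples is not known. Same-numbered samples of 48 pairs correlated at -0.35 to 0.19 in their deviations, and 6 of 48 exceeded 0.1. Such correlations cannot decide this, since paired samples need not correlate in their deviations. With the replicate block, 0 of 9 passed for the knockout effect in CAST-F1, and Ccl6 was at -0.0024 in BL6J and -0.0214 in CAST-F1. Ccl6 between the CAST-F1 and BL6J knockouts no longer passed with the block or with the compared groups alone. Gapdh passed between the CAST-F1 and BL6J knockouts in 4 alternatives (the Wald test, the compared groups alone, and without AJ-F1 control 2 or 3), and against AJ-F1 in 3 of these, all but the Wald test. Since the choice of the genes read these libraries, nothing is read from the calls of single genes. The block gave 206, 445 and 738 genes of all tested between the knockout groups in the order above.

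Knockout effects near 0 changed sign. Those of Ccl6 ran from -0.38 to 0.82 in BL6J and from -0.31 to 0.34 in CAST-F1 when a library was left out, and DESeq2's Wald test gave -0.0191 in CAST-F1. Likewise those of Hbb-b1 and Ly6c2 in CAST-F1 ran from -0.26 to 1.25 and from -0.0546 to 0.35, and that of Gapdh in AJ-F1 from -0.31 to 0.13. Of 1346 comparisons of the 9 genes' values with an alternative, 1271 kept direction and side of the threshold, 51 lost a call, 9 gained one and 15 changed sign, and the cause was not tested. The sums of the pairs moved by less than 1 SD with DESeq2 size factors.

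Over all genes, the counts rose from 273 to 425 with DESeq2's Wald test between the AJ-F1 and BL6J knockouts, and with the compared groups alone from 631 to 1077 and from 834 to 2113 for CAST-F1 against BL6J and AJ-F1. For knockout against control the compared groups alone gave 1323 in place of 3521 in AJ-F1 and 4100 in place of 2498 in CAST-F1. Differences of effects rose from 1, 4 and 11 genes to 72, 27 and 86 with the Wald test, and were 0 to 5, 0 to 17 and 5 to 11 with the other settings that kept all libraries. Without AJ-F1 control 3 the counts between knockouts were 472, 1092 and 1396.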
